A study of Mus musculus with 6 samples.

Results

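The 34 genes described here mark T cells, natural killer (NK) cells, B cells and the plasma cells into which B cells mature. They were listed by name with no threshold on measured values, although earlier results of these data were known when the list was drawn up, and 33 of the 34 had an array row that the platform's annotation gave to that gene alone, out of 19938 genes measured in this way. The exception was Lck, a kinase of the T cell receptor, which had no such row and is not analysed here. Each of the other 33 genes had a single row.

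Expression was measured in whole colon of 3 mutant mice and 3 control mice, with 1 Affymetrix Mouse Gene 1.0 ST array per mouse. The mutants were VilCre;Ihhflox/flox, in which a Cre recombinase under the villin promoter, active in intestinal epithelium, deletes Ihh, which encodes Indian hedgehog, a secreted signal. The controls are labelled wild type, and whether they carried the floxed alleles or the Cre is not stated in the labels. Mutant and control of the same number were littermates, which gave 3 litters. The harvest was at postnatal day 12 by the design text and between day 9 and day 12 by the growth protocol. Levels are log2 values from RMA (robust multi-array average). Changes are differences of mutant from control within litters, positive where mutants were higher, and were tested with limma over all 19938 genes with a threshold of 0.05 on the Benjamini-Hochberg adjusted p. Errors beside a change are its standard error in that fit.

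As a check of the genotype, Ihh was 8.37, 8.22 and 8.22 in mutants 1 to 3, against 8.5, 8.54 and 8.68 in controls 1 to 3, a change of -0.30 ± 0.09 that did not pass the test (adjusted p = 0.139). Whether the probes of its row lie in the deleted part is not known here, so this value checks little. Ptch1, the hedgehog receptor and a target of the pathway, fell by 1.44 ± 0.09 (adjusted p = 0.000493). The colon carried its epithelial markers in both groups: the mean of 10 epithelial genes, Epcam and Vil1 among them, lay between 11.5 and 11.6 in mutants and between 11.4 and 11.5 in controls. Single genes of this list did shift. Krt18 rose (0.60 ± 0.08, adjusted p = 0.00774), and Krt20 was lower in every mutant without passing (-0.43 ± 0.11, adjusted p = 0.0837).

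T cells recognise antigen through a receptor whose CD3 chains pass the signal to intracellular kinases, and the coreceptors CD4 and CD8 tie that receptor to MHC class II and class I molecules. NK cells and cytotoxic T cells kill through granules of perforin and granzymes. B cells signal through an antigen receptor that includes CD79a and CD79b, and in the gut they mature into plasma cells that secrete immunoglobulin A. In the mouse these populations are sparse in the colon before weaning and, as they accumulate, gather in small lymphoid clusters of the wall as well as in the lamina propria.

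In the mutant colon, 1 of the 33 lymphocyte genes fell, 0 rose and 32 did not pass the test. Over all genes tested, 2.11% fell and 1.66% rose, so the share of lymphocyte genes called, 3.03% against 3.77% of all genes, was near the background. At an unadjusted limma p under 0.05 there were 2 of 33 genes, both lower, while 15.1% of all genes passed this looser threshold, 8.03% lower and 7.05% higher. The share among the lymphocyte genes was thus below that of all genes. No lymphocyte gene rose under any of 12 alternative settings of the analysis. The median change of the 33 genes was -0.05, with a range of -0.43 to 0.14, beside a median of 0.01 over all genes. In bulk tissue, fewer cells of a type and less RNA per cell cannot be told apart. The change was below 0 for 22 genes and above 0 for 11.

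The arrays bounded most of these changes. For 30 of the 32 genes that did not pass, the 95% interval of the change lay inside 0.5 in either direction on the log2 scale, that is within 1.41-fold as the arrays measure it. The other 2 were the B cell genes Cd79a and Ms4a1. Over all genes the interval lay inside 0.5 for 17706 of 19938, so such intervals were not particular to the lymphocyte genes. These intervals are not adjusted for the number of genes. RMA values of dim rows understate true differences, no background level was used, and 16 of the 33 genes were among the dimmest 30% of genes, so a narrow interval on the log2 scale does not bound the change in cell number.

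**Figure D1:**
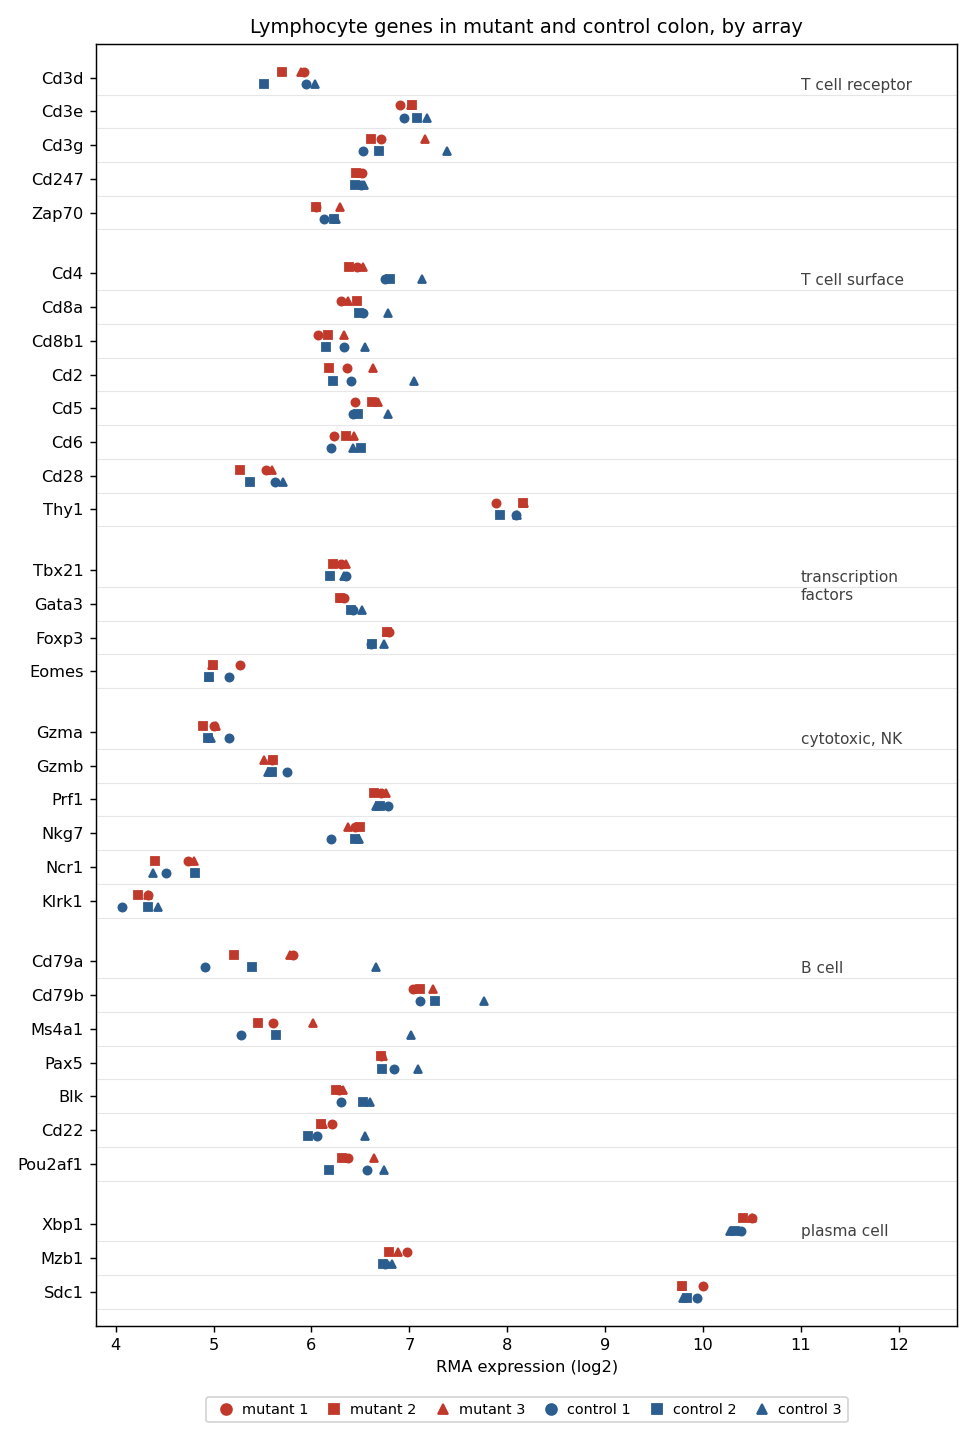
RMA expression (log2, horizontal axis) of the 33 lymphocyte genes, grouped by role, with mutants 1 to 3 in red above controls 1 to 3 in blue for each gene. The symbol gives the litter. Most genes have overlapping groups, Cd4 is lower in all mutants, and the control of litter 3 lies far to the right for B cell genes such as Cd79a (6.66) and Ms4a1 (7.01). Levels of different genes are not comparable.

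The gene that fell was Cd4, the coreceptor of helper T cells, which in the mouse is also present on some dendritic cells and on lymphoid tissue inducer cells. Cd4 was 6.47, 6.39 and 6.53 in mutants 1 to 3, against 6.76, 6.81 and 7.13 in controls 1 to 3. Every mutant was below every control, and the differences within litters 1, 2 and 3 were -0.29, -0.42 and -0.60. Cd4 averaged 6.46 ± 0.0716 in mutants and 6.90 ± 0.203 in controls (SD, n = 3 each), a change of -0.43 ± 0.09, or 1.35-fold lower, with a 95% interval of -0.64 to -0.22 (limma adjusted p = 0.0434). The call lay close to the threshold. It was lost without litter 2 (adjusted p = 0.0713), without litter 3 (0.245) and without the litter block (0.0679), while the direction was the same in all 12 alternatives. The neighbours of Cd4 in the genome, Gpr162 and Lag3, stood at -0.03 ± 0.08 and -0.01 ± 0.10 and did not pass (adjusted p = 0.944 and 0.992).

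The other coreceptor, CD8, is built from the products of the neighbouring genes Cd8a and Cd8b1 and marks cytotoxic T cells. Cd8a was 6.30, 6.47 and 6.37 in mutants, against 6.52, 6.48 and 6.78 in controls. The groups did not overlap, but the difference in litter 2 was -0.02, and the change of -0.22 ± 0.10 did not pass (adjusted p = 0.356). Cd8b1 was 6.07, 6.17 and 6.33 in mutants, against 6.34, 6.15 and 6.54 in controls, with overlapping groups and a change of -0.16 ± 0.09 (adjusted p = 0.499).

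Genes that every T cell uses were close between the groups. Cd3e, the CD3 epsilon chain, was 6.90, 7.03 and 7.01 in mutants, against 6.95, 7.08 and 7.18 in controls (change -0.09 ± 0.08, adjusted p = 0.724). The CD3 gamma gene Cd3g was 6.71, 6.61 and 7.16 in mutants, against 6.53, 6.69 and 7.39 in controls (change -0.04 ± 0.10, adjusted p = 0.912). For Cd3g the arrays of litter 3 were the highest of both groups, and the groups overlapped. Cd3d, the delta chain, lies between those genes in the genome and had 5.92, 5.70 and 5.90 in mutants, against 5.95, 5.52 and 6.04 in controls, again with overlap. Cd247, the zeta chain that carries most of the signalling motifs, spanned 6.46 to 6.51 in mutants and 6.44 to 6.54 in controls, a range over 6 arrays of 0.0981, the smallest of the 33 genes. Zap70, the kinase that docks on phosphorylated CD3 and zeta chains, stood at -0.07 ± 0.08. Of these 5 receptor and kinase genes 0 rose and 0 fell in the limma fit, also at an unadjusted p under 0.05, and their median change was -0.04.

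Among the remaining T cell surface genes, Cd2, an adhesion molecule of T and NK cells, was 6.36, 6.17 and 6.62 in mutants, against 6.40, 6.22 and 7.05 in controls. The littermates of litters 1 and 2 were nearly equal and those of litter 3 differed by -0.42. The adjacent genes Cd5 and Cd6, receptors that dampen T cell signalling, stood at 0.02 ± 0.09 and -0.04 ± 0.08. Cd28, the main costimulatory receptor, had differences of -0.09, -0.10 and -0.11 in the 3 litters (change -0.10 ± 0.08, adjusted p = 0.652), even across litters but not past the test. Thy1, a surface protein that mouse T cells share with neurons and some fibroblasts, stood at 0.03 ± 0.10. Its litter differences were -0.20, 0.24 and 0.07, and those of 9 neuron genes had medians of -0.44, 0.15 and -0.03 in the same litters. The part of neurons in the Thy1 values was not tested.

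Of 4 transcription factors of lymphocyte subsets 0 rose and 0 fell (limma, 0 also at an unadjusted p under 0.05). Gata3, the factor of type 2 helper T cells and innate lymphoid cells, was 6.34, 6.29 and 6.30 in mutants, against 6.42, 6.40 and 6.51 in controls. The mutants were all below the controls, but the change was small (-0.14 ± 0.08, adjusted p = 0.519). Foxp3, the factor of regulatory T cells, ran the other way with 6.79, 6.77 and 6.77 in mutants, against 6.61, 6.62 and 6.74 in controls (0.12 ± 0.08, adjusted p = 0.611). Tbx21, which drives type 1 helper and cytotoxic programmes, was 6.30, 6.22 and 6.35 in mutants, against 6.35, 6.19 and 6.33 in controls, with equal means of 6.29. Eomes, its relative in NK and memory CD8 cells, stood at 0.06 ± 0.08. In all, 5 of the 33 genes had groups that did not overlap (15.2%, beside 19.8% of all genes): Cd4, Cd8a and Gata3 lower, and Foxp3 and Xbp1 higher in mutants. Over all genes 9.78% were lower and 10% higher without overlap.

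Genes of killing and of NK cells showed no difference past the test, with 0 rises and 0 falls among 6 (limma, 0 also at an unadjusted p under 0.05). Gzma, granzyme A, was 5.0, 4.89 and 5.03 in mutants, against 5.16, 4.94 and 4.98 in controls. Gzmb, granzyme B, was 5.59, 5.61 and 5.51 in mutants, against 5.75, 5.60 and 5.55 in controls. For both granzymes the groups overlapped and the highest array was control 1. Prf1, perforin, and Nkg7, a granule membrane protein, stood at -0.01 ± 0.08 and 0.06 ± 0.09. Ncr1, the NK receptor NKp46, was 4.74, 4.40 and 4.80 in mutants, against 4.51, 4.81 and 4.38 in controls, so that litter 2 ran against litters 1 and 3 (differences of 0.23, -0.40 and 0.41). Klrk1, the activating receptor NKG2D, stood at 0.02 ± 0.10. Of these 6 genes 4, Gzma, Gzmb, Ncr1 and Klrk1, were among the dimmest 30%.

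**Figure D2:**
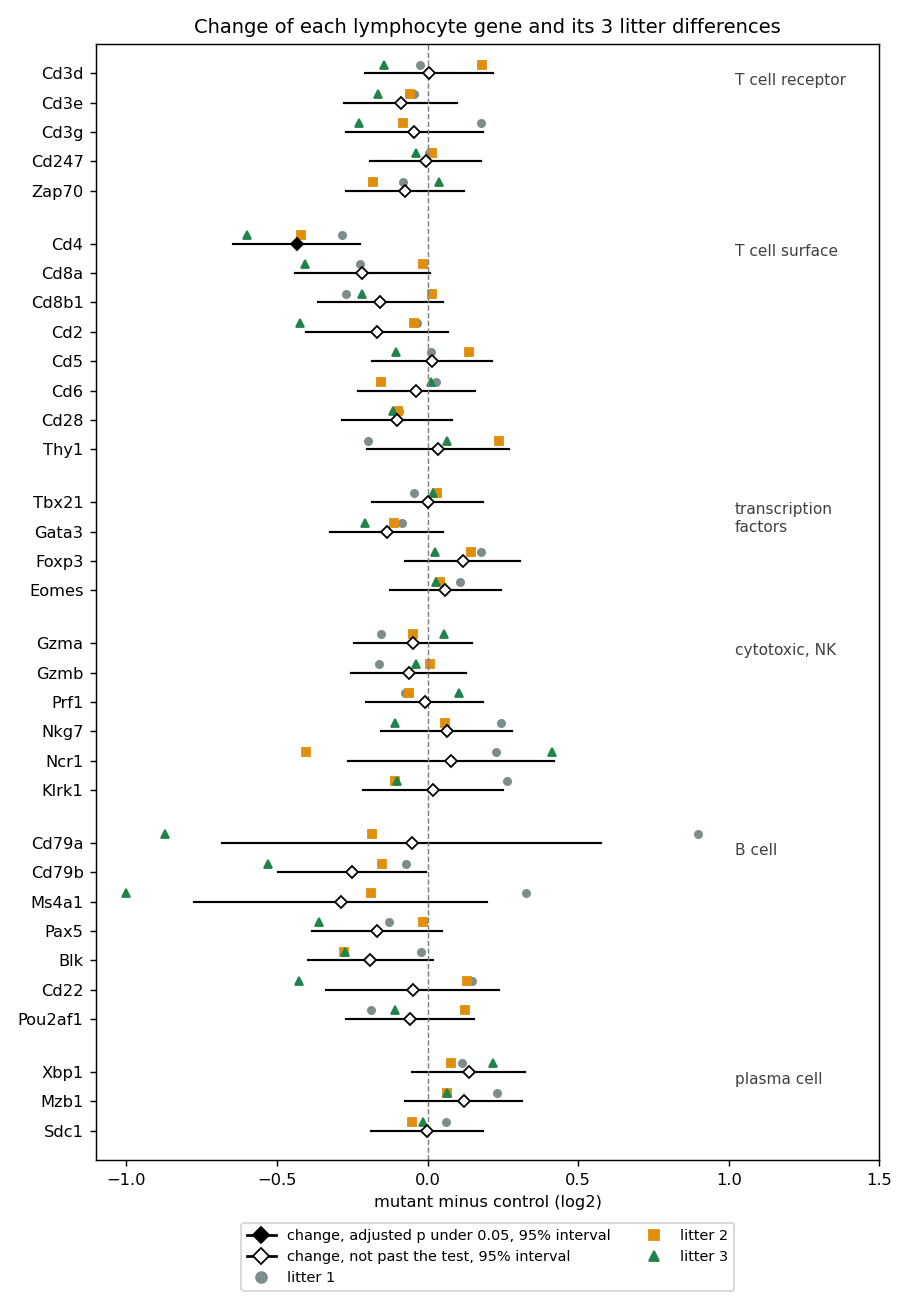
Change of each gene (mutant minus control, log2, horizontal axis) as a diamond with its 95% interval, filled where the adjusted p was under 0.05, and the difference within each litter as a smaller symbol above it. The filled diamond is Cd4 at -0.43. The litter differences spread widest for Cd79a, from -0.87 in litter 3 to 0.90 in litter 1.

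B cell genes were more uneven between animals, with a median range over 6 arrays of 0.581, beside 0.346 for the 33 genes and 0.326 for all genes. Cd79a, a signalling chain of the B cell receptor, was 5.81, 5.21 and 5.78 in mutants, against 4.91, 5.39 and 6.66 in controls. Ms4a1, which encodes CD20, was 5.61, 5.45 and 6.01 in mutants, against 5.28, 5.64 and 7.01 in controls. Control 3 was the highest of the 6 arrays for both genes and control 1 the lowest, so the controls enclosed all mutants. The changes were -0.05 ± 0.27 for Cd79a and -0.29 ± 0.21 for Ms4a1 (adjusted p = 0.965 and 0.629), with litter differences from 0.90 to -0.87 and from 0.33 to -1.0. Without litter 3 the changes turned to 0.36 for Cd79a (adjusted p = 0.609) and 0.07 for Ms4a1 (adjusted p = 0.970). Without litter 1 they went the other way, to -0.53 and -0.59 (adjusted p = 0.159 and 0.163).

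Cd79b, the partner chain of Cd79a, was 7.03, 7.11 and 7.24 in mutants, against 7.11, 7.27 and 7.77 in controls. Its differences in litters 1, 2 and 3 were -0.07, -0.15 and -0.53, and the change of -0.25 ± 0.11 did not pass (adjusted p = 0.319, and 0.914 without litter 3). Pax5, the factor that maintains B cell identity, was 6.71, 6.71 and 6.73 in mutants, against 6.84, 6.72 and 7.09 in controls (-0.17 ± 0.09, adjusted p = 0.484). The mutants were tightly grouped and the controls were not. Blk, a kinase of the B cell receptor, was lower in each litter (-0.19 ± 0.09, adjusted p = 0.384). Cd22, an inhibitory B cell lectin, and Pou2af1, a B cell coactivator of octamer-binding factors, stood at -0.05 ± 0.12 and -0.06 ± 0.09. Of the 7 B cell genes 0 rose and 0 fell in the limma fit, with 1, Cd79b, lower at an unadjusted p under 0.05, and the median change was -0.17. The median was -0.02, -0.15 and -0.43 in litters 1, 2 and 3.

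Of 3 plasma cell genes 0 rose and 0 fell (limma, 0 also at an unadjusted p under 0.05), and the median change was 0.12. Xbp1, the factor that expands the secretory machinery of plasma cells and also of goblet and Paneth cells, was 10.5, 10.41 and 10.5 in mutants, against 10.39, 10.33 and 10.28 in controls. All mutants were above all controls, with a change of 0.14 ± 0.08 that did not pass (adjusted p = 0.517). Mzb1, a chaperone of immunoglobulin assembly, was 6.98, 6.80 and 6.88 in mutants, against 6.75, 6.73 and 6.82 in controls (0.12 ± 0.08, adjusted p = 0.605). Sdc1, syndecan 1, which marks plasma cells but is also made by epithelium, had equal means of 9.86. Of 11 measured genes of secretory epithelium 4 rose and 2, Clca1 and Zg16, fell, with a median change of 0.35. Their mean level was 11.03, 11.14 and 10.99 in mutants, against 10.86, 10.86 and 10.83 in controls. Among mutants this mean was highest in mutant 2, where Xbp1 was lowest. The part of these cells in the Xbp1 and Sdc1 values was not tested. Jchain, which joins immunoglobulin A into dimers, stood at -0.19 ± 0.12.

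The unevenness followed litter 3 and control 3 in particular. Control 3 was the highest of 6 arrays for 19 of 33 lymphocyte genes, including 7 of 7 B cell genes, 4 of 5 receptor and kinase genes and 6 of 8 T cell surface genes, but for 13.7% of all genes. Within each group, array 3 was the highest for 19 genes among mutants and for 24 genes among controls, and for 14 genes (42.4%) in both groups at once, beside 10.6% of all genes. The spread was larger among controls than among mutants for 28 of 33 genes (84.8%, beside 48.2% of all genes). The B cell list averaged 6.29, 6.16 and 6.41 in mutants, against 6.15, 6.24 and 6.92 in controls. The cytotoxic and NK list averaged 5.47, 5.38 and 5.47 in mutants, against 5.41, 5.47 and 5.41 in controls, without a high control 3. Control 3 was the highest of 6 arrays for 1 of its 6 genes. Other traits were shared: mutant 3 was the highest mutant for 4 of the 6, and the spread was larger among controls for 6 of 6.

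Genes outside the 33 that mark all leukocytes were also high in litter 3. For 10 of 10 genes expressed across leukocytes mutant 3 was the highest mutant, and for 9 of 10 control 3 was the highest control. Ptprc, the leukocyte antigen CD45, was 8.35, 8.21 and 8.85 in mutants, against 8.05, 8.45 and 9.13 in controls. Of 17 homing and follicle genes array 3 was the highest of both groups for 8, among mutants for 10 and among controls for 11. Glycam1, a ligand for lymphocyte homing made by high endothelial venules, was 6.28, 5.93 and 7.06 in mutants, against 5.81, 5.95 and 7.97 in controls. Fcer2a, the IgE receptor CD23 of mature B cells, was 5.71, 5.72 and 5.98 in mutants, against 6.07, 5.79 and 6.91 in controls. Array 3 was thus the highest in both groups, although mutant 3 stayed below control 1. The dissection of lymphoid follicles or nodes with the colon is not recorded in the labels, and its part in these values was not tested. Epithelial genes did not follow the pattern, with control 3 highest for 1 of 10.

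**Figure D3:**
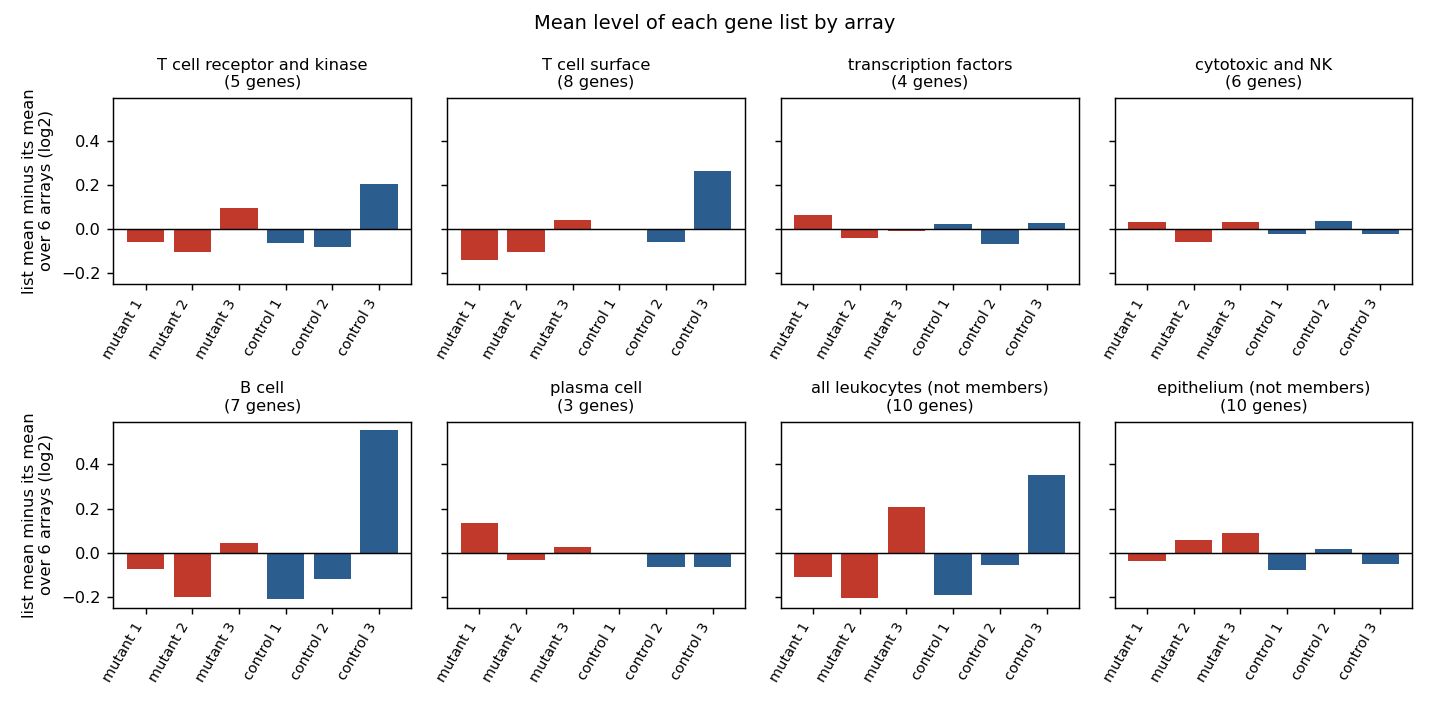
Mean level of 6 groups of lymphocyte genes and of 2 other lists in each array, given as the difference from the list's mean over 6 arrays (log2, vertical axis), with mutants in red and controls in blue. Control 3 stands 0.555 above the average for B cell genes and 0.353 above it for genes of all leukocytes, and mutant 3 stands 0.206 above it for the leukocyte genes.

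Other genes of the same lineages were read from lists that hold none of the 33. Of 21 other T cell genes 0 rose and 0 fell in the limma fit, and their median change was -0.09. At an unadjusted limma p under 0.05, 4 were lower and 0 higher, beside 8.03% and 7.05% of all genes. In either direction the count is near the 15.1% of all genes, but all 4 lay on the lower side. The list was not tested as a set. The nearest to the threshold were Cd96, a receptor of T and NK cells (-0.44 ± 0.11, adjusted p = 0.0731), and Satb1, a chromatin organiser of T cells that epithelium and neurons also express (-0.46 ± 0.11, adjusted p = 0.0737). Il7r, the interleukin 7 receptor of naive T cells and innate lymphoid cells, stood at -0.31 ± 0.11 (adjusted p = 0.220).

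Of 16 other NK and innate lymphoid genes 1 rose and 1 fell, and the median change was -0.02. Id2, an inhibitor of basic helix-loop-helix factors that innate lymphoid cells need and that many other cells express, was 9.44, 9.46 and 9.39 in mutants, against 9.82, 9.87 and 9.97 in controls (-0.46 ± 0.08, adjusted p = 0.0283, and 0.160 without litter 3). Zbtb16, the factor PLZF of innate-like T cells, which glucocorticoids induce in other tissues, was 7.33, 7.95 and 7.76 in mutants, against 7.05, 6.97 and 6.92 in controls (0.70 ± 0.13, adjusted p = 0.0301, and 0.0577 without litter 3). For each of these genes the groups did not overlap. The cytokine and receptor genes Ifng, Il17a and Il23r stood at 0.07 ± 0.09, -0.03 ± 0.09 and -0.22 ± 0.08 and did not pass.

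Of 17 other B cell genes 2 fell and 0 rose, with 5 lower and 1 higher at an unadjusted p under 0.05 (8.03% and 7.05% of all genes), and the median change was -0.08. Cd74, the invariant chain of MHC class II, which B cells share with dendritic cells and macrophages, was 8.80, 8.14 and 8.72 in mutants, against 9.05, 9.36 and 9.82 in controls (-0.85 ± 0.17, adjusted p = 0.0391, and 0.0597 without litter 3). Spib, an Ets factor of B cells, plasmacytoid dendritic cells and the M cells that cover lymphoid follicles, was 5.87, 5.54 and 6.07 in mutants, against 6.18, 6.27 and 6.57 in controls (-0.51 ± 0.10, adjusted p = 0.0327). Its adjusted p was 0.0973 without litter 2 and 0.0775 without litter 3. Both genes were lower in every mutant than in any control. The 1 gene higher at an unadjusted limma p under 0.05 was Blnk, which did not pass (0.38 ± 0.08, adjusted p = 0.0511). Blnk was higher in every mutant than in any control.

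The next list holds genes that guide lymphocytes into the gut wall or build follicles. Of 17 measured homing and follicle genes 2 fell and 0 rose, 8 were lower and 0 higher at an unadjusted p under 0.05 (8.03% and 7.05% of all genes), and the median change was -0.26. Stromal cells make some of these genes, and of 12 smooth muscle and fibroblast genes 4 fell and 0 rose, with the same median of -0.26 and a mean level from 11.8 to 12.2 in mutants and from 12.26 to 12.33 in controls. The part of stromal cells in the list's values was not tested. Spib is 1 of the 2. The other was Itga4, an integrin chain that pairs with Itgb7 to bind the vascular addressin Madcam1. Itga4, which monocytes and other cells also make, was 8.73, 8.46 and 8.97 in mutants, against 8.99, 9.36 and 9.60 in controls (-0.60 ± 0.12, adjusted p = 0.0389). Its adjusted p was 0.0707 without litter 2 and 0.0696 without litter 3. Madcam1 and Itgb7 stood at -0.27 ± 0.10 and -0.18 ± 0.09 (adjusted p = 0.261 and 0.410).

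Cxcl13, the chemokine that draws B cells into follicles, was 7.57, 6.46 and 7.56 in mutants, against 7.43, 8.25 and 8.91 in controls. The differences in litters 1, 2 and 3 were 0.13, -1.78 and -1.36, with overlapping groups, and the change did not pass (-1.0 ± 0.30, adjusted p = 0.140). Gp2, a receptor of M cells, stood at -0.40 ± 0.10 (adjusted p = 0.0897). Ccl25, Ccl20 and Ccl28, chemokines made by gut epithelium, stood at 0.05 ± 0.08, 0.03 ± 0.12 and 0.18 ± 0.15 and did not pass. Pigr, the epithelial receptor that carries plasma cell immunoglobulin A into the lumen, rose, with 12.46, 12.53 and 12.47 in mutants, against 11.74, 12.03 and 12.05 in controls (0.55 ± 0.09, adjusted p = 0.0196). It is the 1 riser of 8 other plasma cell genes, of which 0 fell, and it passed with each litter left out. At an unadjusted limma p under 0.05, 3 of the 8 were higher and 1 lower, beside 7.05% and 8.03% of all genes. Besides Pigr these were Txndc5 (0.27 ± 0.08) and Creld2 (0.30 ± 0.09), both higher, and Prdm1 (-0.27 ± 0.11), lower. Txndc5, Creld2 and Prdm1 did not pass (adjusted p = 0.124, 0.125 and 0.288). Of 11 genes of secretory epithelium, 8 were higher and 2 lower at an unadjusted limma p under 0.05. The part of secretory epithelium in the Txndc5 and Creld2 values was not tested.

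Myeloid cells can carry Cd4 and Cd74. Of 15 macrophage and dendritic cell genes 2 rose and 1 fell, with a median change of -0.10 and a mean level from 7.80 to 7.94 in mutants and from 7.87 to 7.96 in controls. Cx3cr1, a receptor of resident gut macrophages, was 7.79, 7.81 and 7.91 in mutants, against 8.25, 8.31 and 8.33 in controls (-0.46 ± 0.08, adjusted p = 0.0216, with 0.0580 without litter 2 and 0.0682 without litter 3). Itgam, the integrin CD11b of macrophages and neutrophils, was 7.59, 7.97 and 7.64 in mutants, against 7.16, 7.38 and 7.097 in controls (0.52 ± 0.08, adjusted p = 0.0160, and 0.0546 without litter 3). Cd14, a coreceptor for bacterial lipopolysaccharide, was 8.11, 7.91 and 8.19 in mutants, against 7.80, 7.54 and 7.68 in controls (0.40 ± 0.08, adjusted p = 0.0441). The groups did not overlap for any of these 3 genes. The Cd14 call was lost with each litter left out, at adjusted p = 0.0502, 0.0877 and 0.259 without litters 1, 2 and 3. The dendritic cell genes Itgax, Flt3 and Zbtb46 stood at -0.06 ± 0.12, -0.09 ± 0.10 and -0.10 ± 0.09. The part of myeloid cells in the Cd4 value was not tested. Neutrophil genes rose in 6 of 12 cases and fell in 0, with a median change of 0.48. The lymphocyte genes rose in 0 of 33, which is near the share of all genes. Over all genes 1.66% rose and 2.11% fell.

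**Figure D4:**
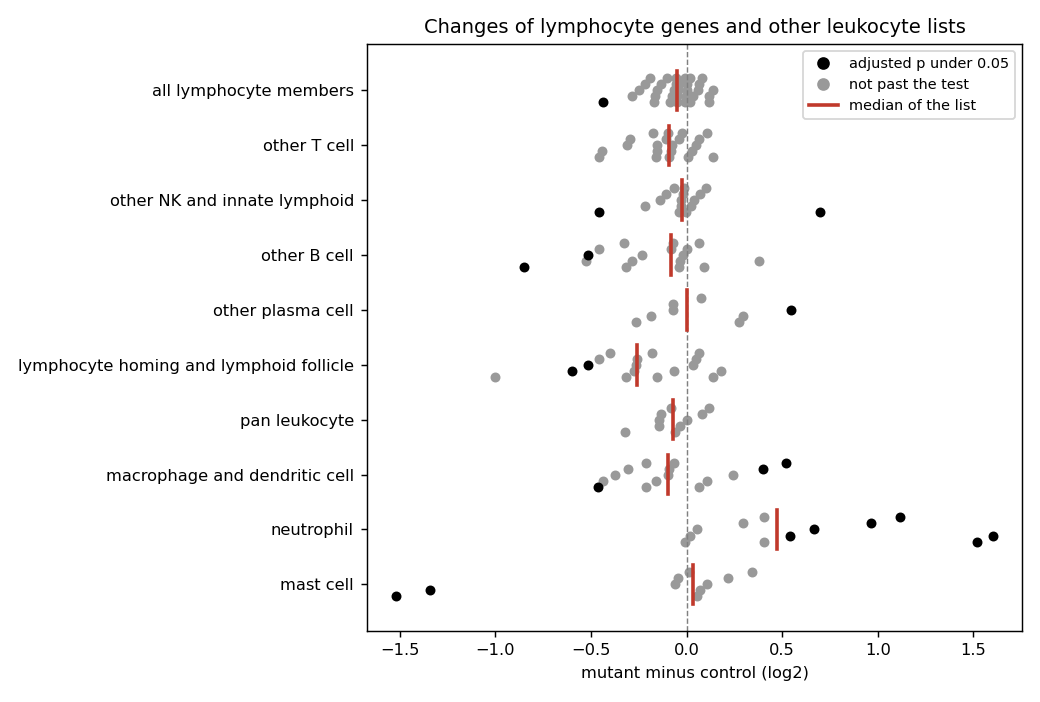
Change of each gene (mutant minus control, log2, horizontal axis) in the 33 lymphocyte genes and 9 other lists of leukocyte genes, black where the adjusted p was under 0.05 and grey elsewhere, with the list median as a red bar. The lymphocyte genes lie around a median of -0.05 with Cd4 as the black point, while 6 neutrophil genes are black and to the right.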

How the data were processed

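For 6 arrays, 1 per mouse, the authors deposited log2 expression made with RMA, per the submitters' processing notes. RMA corrects background, quantile-normalizes and combines probes into 1 value per transcript, which narrows differences of dim genes. The sources used here do not name its version or the array's genome build. Of 35557 rows, 21789 had 1 gene symbol in the platform's annotation of 2016, 1621 had several and 12147 had none here. Rows with 1 symbol were used and the row with the highest mean kept per gene, which left 19938 genes. Array medians lay between 7.10 and 7.14, correlations between arrays between 0.9855 and 0.9936, and no array copied another. The number of arrays limits the precision.

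Mutant and control were compared with limma 3.58.1 in R 4.3.3 (lmFit, eBayes without trend, two-sided, Benjamini-Hochberg over all genes) with the litter as a fixed block, which leaves 2 residual degrees of freedom and 5.85 from the shared prior. Pairing comes from the design text. Deviations of littermates correlated by 0.0128, 0.00516 and 0.0613 over all genes, and by 0.088, 0.387 and 0.646 over the 33 lymphocyte genes, in litters 1, 2 and 3. The script was tested on simulated data. The genes and lists were chosen with earlier results of these data known. The genes named are all 33, some of the up to 4 genes with the smallest p of each other list, and Ihh and Ptch1. Gli1 and Hhip, also planned as checks of the genotype, are not described. Others (Ptprc, Glycam1, Fcer2a, Jchain, Madcam1, Itgb7, Ccl20, Ccl25, Ccl28, Ifng, Il17a, Itgax, Flt3, Zbtb46, Gpr162, Lag3) were named after their values were seen. RefSeq annotation (GRCm38.p6) was used for gene neighbourhood alone. Alternatives were the block, the prior, array weights, a filter on dim genes, scaling, rows per gene, an ordinary paired test and each litter left out.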

Additional observations from a re-analysis of the deposited data

How the results depend on the processing

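Of 12 alternatives, 7 gave 1 lymphocyte gene that fell, Cd4, and 5 gave 0. The 5 were the fit with no replicate block (litter pairing ignored; Cd4 adjusted p = 0.0679), the litter as a random block (0.0514), the ordinary paired test (0.495), and the fits without litter 2 and without litter 3. With each litter left out in turn the count of falling genes ranged from 0 to 1. Over these alternatives the adjusted p of Cd4 ran from 0.0120 to 0.495 and its change from -0.51 to -0.35. The count of lymphocyte genes that rose was 0 in all 12, and the median change ran from -0.07 to -0.01. Array weights raised the calls over all genes to 512 rises and 734 falls, against 330 and 421, and the ordinary paired test, which has 2 degrees of freedom per gene, gave 0 rises and 0 falls (992 and 977 at an unadjusted p under 0.05). The litter block changed no other call among the 33 genes. Of the values of single lymphocyte genes under these alternatives, 347 kept direction and side of the threshold, 5 (Cd4) lost the call and 28 changed sign, all of them below the test; the cause was not tested. Sign changes outside the fits with a litter left out were in Prf1 (0.013) and Klrk1 (-0.048) with array weights, Cd3d (-0.030), Tbx21 (-0.025) and Klrk1 (-0.0038) with quantile normalization, and Cd3d (-0.0066) and Tbx21 (-0.011) with median centring. With each litter left out in turn, ranges that cross 0 were -0.083 to 0.078 for Cd3d, -0.15 to 0.048 for Cd3g, -0.018 to 0.0098 for Cd247, -0.045 to 0.075 for Cd5, -0.071 to 0.020 for Cd6, -0.067 to 0.15 for Thy1, -0.015 to 0.023 for Tbx21, -0.10 to 0.0032 for Gzma, -0.067 to 0.022 for Prf1, -0.025 to 0.15 for Nkg7, -0.089 to 0.32 for Ncr1, -0.10 to 0.081 for Klrk1, -0.53 to 0.36 for Cd79a, -0.59 to 0.069 for Ms4a1, -0.15 to 0.14 for Cd22, -0.15 to 0.0089 for Pou2af1 and -0.032 to 0.024 for Sdc1. The alternatives for genes outside the 33 were added after seeing the data. The calls of Cd74, Spib and Itga4 were lost with litters ignored (adjusted p = 0.0703, 0.11 and 0.10), with the litter as a random block (0.0546, 0.0820 and 0.0763) and in the ordinary paired test (0.577, 0.509 and 0.551). The Itgam call was also lost with litters ignored (limma adjusted p = 0.0515). Cd14 lost its call with litters ignored (0.0760), the litter as a random block (0.0562), quantile normalization (0.0513) and median centring (0.0506). In the ordinary paired test the calls of Id2, Zbtb16, Pigr, Cx3cr1, Itgam and Cd14 were lost as well. The arrays carry no counts, and no signal over background was available, so dim genes such as Klrk1 and Ncr1 limit what can be seen.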
